A study of Bos taurus with 15 samples.

Results

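The T lineage transcription factors are nuclear proteins that commit a blood progenitor to the T cell fate and guide thymocytes through their maturation. 10 genes were taken: TCF7, LEF1, BCL11B, GATA3, RUNX1, RUNX3, TOX, SATB1, IKZF1 and MYB. A probe was a member when its gene name on the array was one of these symbols or its description gave the symbol in brackets. This found 10 probes for 9 of the genes, among 21475 bovine probes and 14735 gene symbols on the array. IKZF1 was reached through its gene number, since the array describes it under an older symbol, and the same step added 1 more probe of RUNX1. 1 further probe carries a gene number absent from the current cattle gene list and is described as T-cell factor 1, the protein of TCF7; it is shown as TCF7 probe B. In all 13 probes stood for the 10 genes, and where a gene had several they were lettered from the brightest down.

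TCF7 and LEF1 are closely related proteins with a high mobility group box that act at the end of the Wnt pathway, where beta-catenin activates them and Groucho-type proteins make them repressors. In the thymus TCF7 is switched on by Notch and in turn switches on GATA3 and BCL11B, which shut off other blood cell fates. RUNX proteins bind DNA together with CBFB and regulate the CD4 and CD8 co-receptors, TOX and SATB1 act when thymocytes choose between the CD4 and CD8 lineages, and IKZF1 and MYB serve lymphoid progenitors more widely. Glucocorticoids are known to kill immature thymocytes, so the comparison asks whether these regulators differ in the thymus of treated cows.

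RNA came from the thymus of 15 Holstein cows, collected at a slaughterhouse, and each animal was measured on 1 array with 1 dye. 7 cows were untreated controls, and 8 had received oral prednisolone, a glucocorticoid drug, at a dose of 30 mg per animal each day over 35 days. The animals' age was not given in the sources used here, and whole tissue was measured, so that fewer cells of a type and less RNA per cell cannot be told apart. Values below are log2 signals relative to the 75th percentile of the same array; a value of a probe can be set against the same probe in another animal, but not against another probe. Thymus markers were measured: 8 of 8 kept thymocyte markers, among them RAG1, DNTT and PTCRA, were well above background on all 15 arrays. The same held for 8 of 8 thymic epithelial markers, among them FOXN1 and PSMB11. CD4 and RAG2, also listed as thymocyte markers, were not found on the array. These counts do not single out thymus, since 6 of 6 kept B cell and 7 of 7 fibroblast markers met them too. So did 13695 of the 16068 probes tested.

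The 15 arrays lay on 4 slides that did not hold the groups evenly. There were 3 controls and 1 treated cow on slide 1 and again on slide 3, 1 control and 3 treated cows on slide 2, and 3 treated cows (prednisolone animals 2, 4 and 7) with no control on slide 4. The arrays of slide 4 stood apart: 840 to 1049 of their bovine spots were marked as not uniform, against 4 to 16 on the other arrays, although no spot of the 13 member probes was among those marked. Between 67.1% and 77.8% of the bovine spots of an array were well above background, and precision is limited by how many arrays there are. On slide 4 treatment and slide cannot be told apart, so the difference of each member is given over all animals, in a fit that takes slide as a block (below, blocked by slide), within slides 1 to 3, and without slide 4.

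None of the 10 genes passed the test between prednisolone and control cows. 0 of 13 member probes had a limma adjusted p under 0.05, as did 0 of the 16068 probes tested (percent called 0). At an unadjusted p under 0.05 there was 1 member probe of 13, TCF7 probe B, against 7.08% of all probes, a share near that background. In the fit blocked by slide the same count was 1 of 13, again TCF7 probe B, against 9.57% of all probes. The values of 8 member probes lay on the higher side with prednisolone, beside 49.9% of all probes, and those of 5 on the lower side. None of the 13 member probes was on the lower side with an unadjusted limma p under 0.05, against 3.1% of all probes. Over the 10 genes, each by its brightest probe, 6 were on the higher and 4 on the lower side, with a median log2 difference of 0.028, beside -0.00044 over all probes. The median of the 10 genes turned to -0.0059 blocked by slide and to -0.037 without slide 4, where all probes had 0.00029 and 0.021. The 95% confidence interval of the difference included 0 for 12 of the 13 probes. In no member did the values of the groups separate fully, which they did for 0.112% of all probes, 0.0934% with treated cows higher and 0.0187% with treated cows lower.

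**Figure D1:**
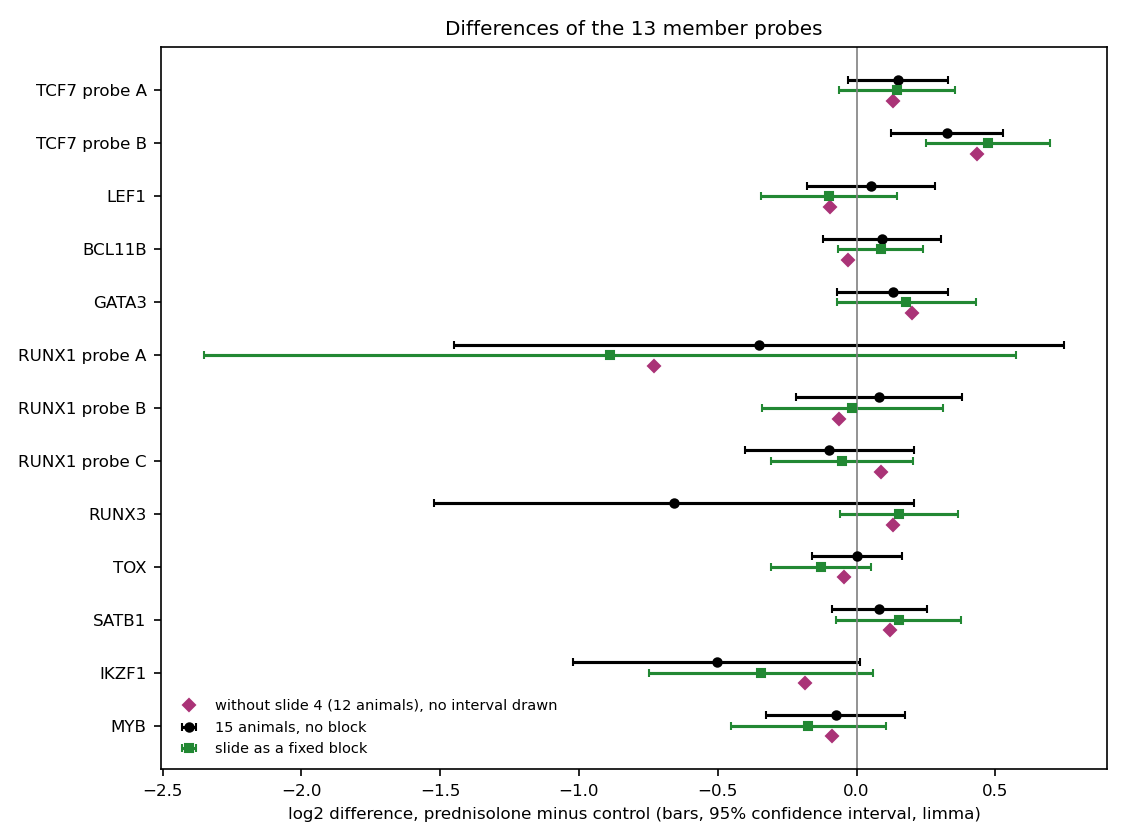
Log2 difference, prednisolone minus control (horizontal axis), of the 13 member probes over 15 animals (black circles, with 95% confidence intervals from limma), with slide as a fixed block (green squares, with intervals) and without the 3 arrays of slide 4 (purple diamonds). The RUNX3 point moves from -0.66 to 0.15 once slide is blocked, and TCF7 probe B is the 1 probe whose interval over 15 animals lies on 1 side of 0 (0.12 to 0.53).

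TCF7, which opens the T cell programme in early thymocytes, was on the higher side with prednisolone by probe A, without passing. The same held for probe B, which is assigned to TCF7 by its description on the array alone. TCF7 probe A (A_73_117109) had a lowest value of 4.58, a median of 4.79 and a highest value of 5.00 in the 7 controls, and 4.72, 4.92 and 5.12 in the 8 treated cows. The groups overlapped over most of their range. Treated minus control, the log2 difference was 0.15 ± 0.085 (SE), a ratio of 1.11 with a 95% interval of 0.978 to 1.26 (limma adjusted p = 0.743). It was 0.19, -0.013 and 0.25 within slides 1, 2 and 3, 0.15 blocked by slide and 0.13 without slide 4.

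TCF7 probe B (A_73_112667) gave the smallest p of the 13 probes. Its lowest, median and highest values were -0.68, -0.58 and -0.45 in controls and -0.62, -0.20 and 0.067 in treated cows. 1 treated animal of slide 4, prednisolone animal 2, lay among the controls at -0.62, and prednisolone animal 5 at -0.45 was level with the highest of them. The log2 difference was 0.32 ± 0.095 (limma unadjusted p = 0.00363, adjusted p = 0.511), a ratio of 1.25 with an interval of 1.09 to 1.44. Within slides 1, 2 and 3 the difference was 0.52, 0.27 and 0.62. On each of these slides every treated animal lay above every control, as was true of 3.44% of all probes; GATA3 was the other member of which this held. With slide as a block the difference was 0.47 ± 0.10 (limma adjusted p = 0.264), and without slide 4 it was 0.43 ± 0.087 (limma adjusted p = 0.256). Across the 15 animals both TCF7 probes varied together, with Pearson r = 0.651 and Spearman rho = 0.711, and r = 0.769 after each slide's mean was subtracted; this r is a description of 15 arrays that share slides.

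LEF1, the partner of TCF7 with overlapping tasks in thymocytes, did not differ beyond its spread. LEF1 (A_73_116494) spanned 2.26 to 2.68 in controls, with a median of 2.37, and 2.23 to 2.88 in treated cows, with a median of 2.44. The highest values, 2.88 and 2.80, belonged to prednisolone animals 4 and 7 on slide 4. The groups differed by 0.052 ± 0.11 (limma adjusted p = 0.950, 95% interval -0.18 to 0.28). It turned to -0.10 blocked by slide and to -0.094 without slide 4, and was -0.25, 0.14 and -0.20 within slides 1, 2 and 3. The interval leaves room for a change of either sign, and its upper end is a ratio of 1.22.

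**Figure D2:**
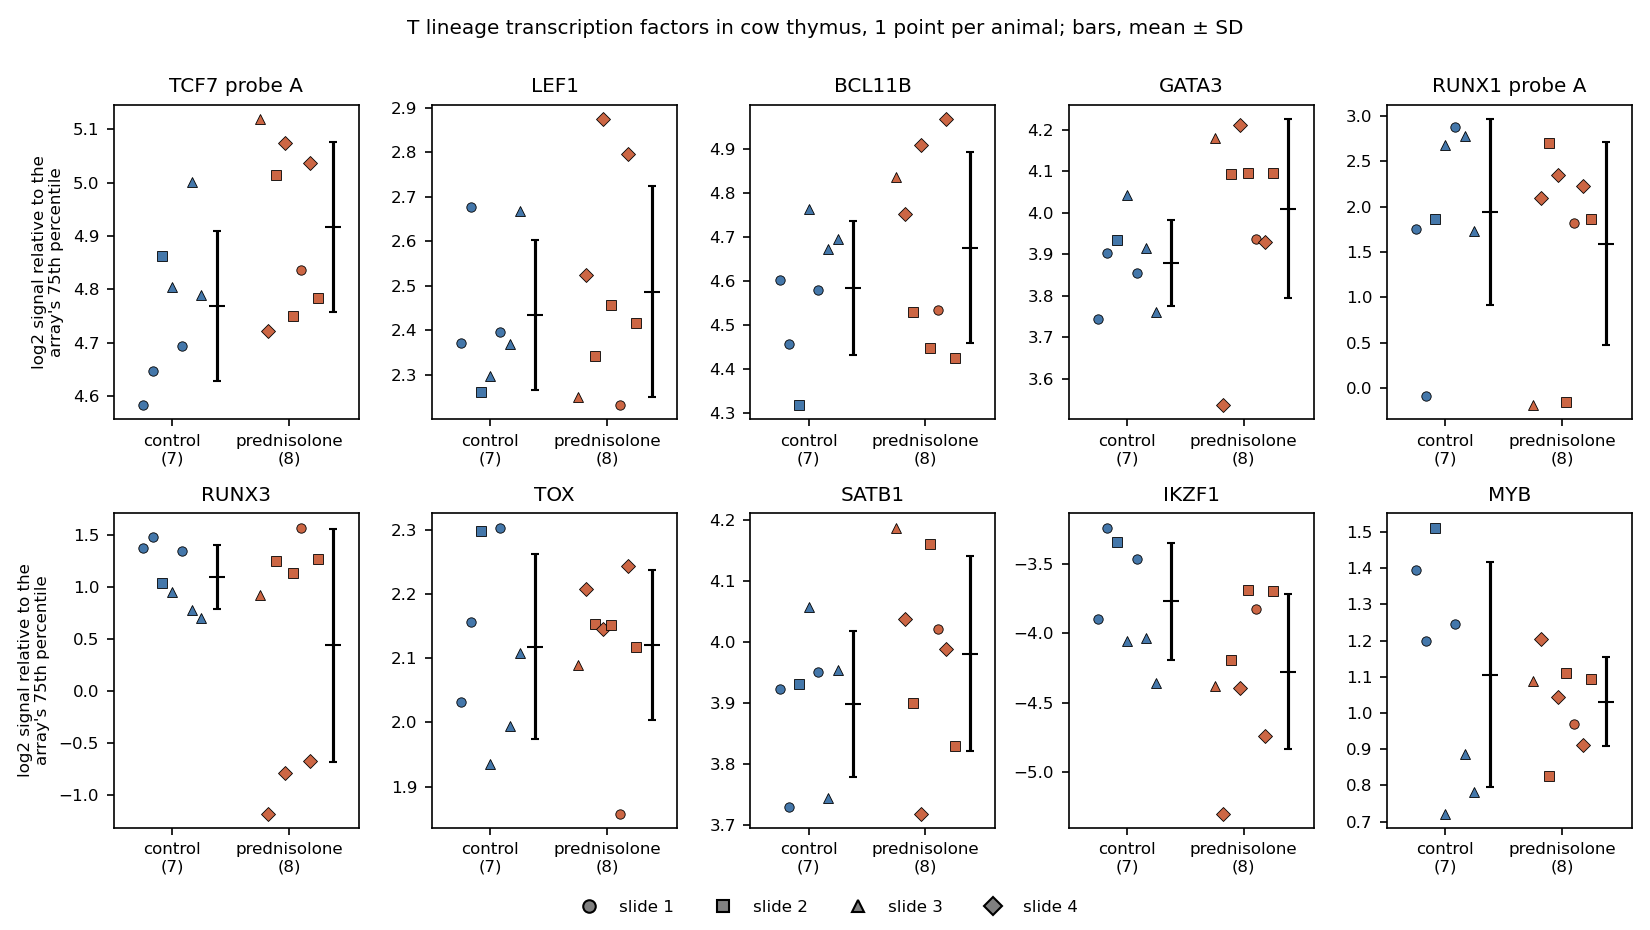
Log2 signal relative to the array's 75th percentile (vertical axis, a scale of its own in each panel) for the brightest probe of each of the 10 genes, 1 point per animal, with controls in blue and prednisolone animals in orange and a point shape for each slide; black bars give the mean ± SD of the group (n = 7 and 8). Every panel shows groups that overlap, and in the RUNX3 panel the 3 diamonds of slide 4 lie between -1.18 and -0.68, below all other animals.

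BCL11B, the zinc finger repressor that locks in T cell commitment, followed the slides rather than the groups. BCL11B (A_73_120831) had 4.32, 4.60 and 4.76 as lowest, median and highest values in controls and 4.43, 4.64 and 4.97 in treated cows. All animals of slides 3 and 4 lay between 4.67 and 4.97, and all animals of slides 1 and 2 lay between 4.32 and 4.60, whatever their treatment. Slides held 84.7% of the sum of squares of BCL11B, more than in 93.6% of all kept probes. The means of the groups differed by 0.092 ± 0.10 (limma adjusted p = 0.889) and 0.088 ± 0.071 blocked by slide (limma adjusted p = 0.745). It was -0.012, 0.15 and 0.13 within slides 1, 2 and 3, and turned to -0.029 without slide 4.

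GATA3, a zinc finger factor needed at commitment and again for CD4 T cells, was on the higher side with prednisolone, without passing. GATA3 (A_73_106801) spanned 3.74 to 4.04 in controls with a median of 3.90, and 3.54 to 4.21 in treated cows with a median of 4.09. The lowest value of all belonged to prednisolone animal 2 on slide 4, at 3.54, below every control. Treated minus control gave 0.13 ± 0.094 (limma adjusted p = 0.810), a ratio of 1.09 with an interval of 0.953 to 1.26. It was 0.10, 0.16 and 0.27 within slides 1, 2 and 3, where each treated animal lay above the controls of its slide. The difference was 0.18 ± 0.12 blocked by slide (limma adjusted p = 0.672) and 0.20 ± 0.071 without slide 4 (limma adjusted p = 0.441). GATA3 and TCF7 probe B were thus 2 of 13 member probes in that position on the higher side, and 0 of 13 were so on the lower side, where 2.84% of all probes were.

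RUNX1, which supports early thymocytes and the silencing of CD4, was measured by 3 probes that did not follow one another closely. RUNX1 probe A (A_73_106931) stood at 2 separate levels among the animals. 3 cows, control 2 and prednisolone animals 1 and 5, had values of -0.086, -0.18 and -0.15, and the other 12 lay between 1.73 and 2.87, with a gap of 1.81 and no animal in it. The 3 low animals came from slides 1, 3 and 2 and from both groups. Both spots of the probe gave the same picture, with a spot-to-spot difference of at most 0.376 on any array. In those 3 animals RUNX1 probe B read -0.24, 0.10 and -0.32, inside its range in the other animals (-0.74 to 0.22), and RUNX1 probe C read -4.62, -4.80 and -4.38.

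The differences of RUNX1 between the groups did not pass with any probe. RUNX1 probe A had a higher median in treated cows (1.98) than in controls (1.87), but its means gave a log2 difference of -0.35 ± 0.52 (limma adjusted p = 0.923). The 95% interval, from -1.45 to 0.75, was the widest of the 13 probes. Blocked by slide the difference was -0.89 ± 0.67, and without slide 4 it was -0.73. Within slides 1, 2 and 3 it was 0.30, -0.39 and -2.57, a range that the animals at the low level set. RUNX1 probe B (A_73_112916) had medians of -0.21 in controls and -0.025 in treated cows and a difference of 0.081 ± 0.14 (limma adjusted p = 0.937), turning to -0.015 when blocked by slide and to -0.064 without slide 4. RUNX1 probe C (A_73_111901) had medians of -4.74 and -4.89 and a difference of -0.097 ± 0.14 (limma adjusted p = 0.923), which was -0.053 blocked by slide, 0.090 without slide 4 and -0.73 with normexp background correction. Within slides 1, 2 and 3 probe B gave -0.54, 0.26 and 0.23 and probe C gave -0.35, 0.054 and 0.14. Between probes B and C Pearson r over the 15 animals was -0.358 (Spearman rho = -0.500), and 0.437 once slide means were subtracted; for probe A, whose values lie at separate levels, no r is given.

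**Figure D3:**
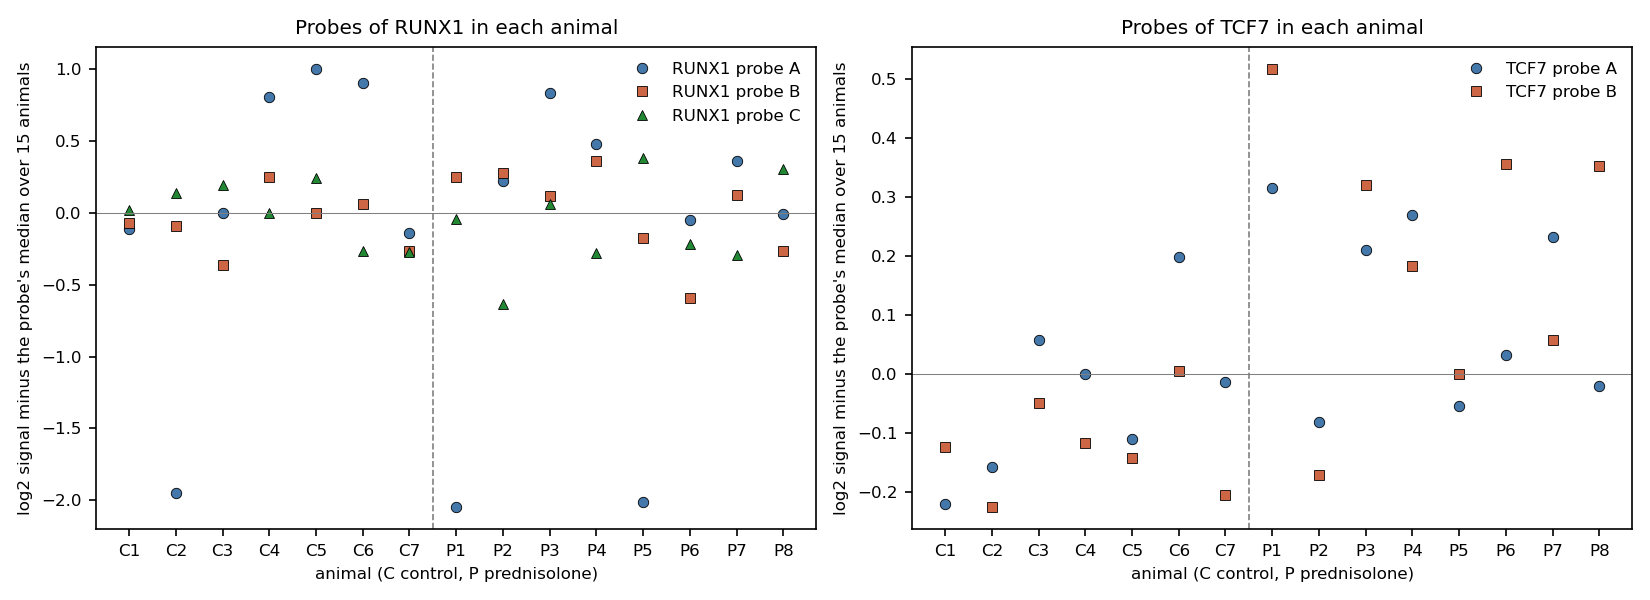
Log2 signal of each probe minus its median over the 15 animals (vertical axis), for the 3 probes of RUNX1 (left) and both probes of TCF7 (right), with animals along the horizontal axis and a dashed line between the 7 controls (C) and the 8 prednisolone animals (P). RUNX1 probe A is far below its median in C2, P1 and P5, where RUNX1 probes B and C are not, while the TCF7 probes mostly lie on the same side of their medians.

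RUNX3, which sets the CD8 lineage of thymocytes and killer T cells, showed the largest difference in means of the 13 probes, and that difference lay in 1 slide. RUNX3 (A_73_120551) had 0.70, 1.03 and 1.48 as lowest, median and highest values in controls and -1.18, 1.03 and 1.57 in treated cows. The 3 animals of slide 4 read -1.18, -0.79 and -0.68, while the 5 other treated cows lay between 0.92 and 1.57, inside or just above the range of the controls. The 4 slides formed bands without overlap: 1.35 to 1.57 on slide 1, 1.03 to 1.27 on slide 2, 0.70 to 0.95 on slide 3, and the values above on slide 4. Slides held 97.7% of the sum of squares, more than in 99.8% of all kept probes. Over all animals the log2 difference was -0.66 ± 0.41 (limma adjusted p = 0.768). With slide as a block it was 0.15 ± 0.098 (limma adjusted p = 0.672), without slide 4 it was 0.13 ± 0.16 (limma adjusted p = 0.841), and within slides 1, 2 and 3 it was 0.17, 0.18 and 0.11. The sign over all animals thus rested on the 3 arrays of slide 4, and both spots of the probe read alike on each array, with a spot SD of 0.060.

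TOX, a high mobility group protein of the CD4 lineage choice, was the steadiest of the members. TOX (A_73_112453) had 1.94, 2.11 and 2.30 as lowest, median and highest values in controls and 1.86, 2.15 and 2.24 in treated cows. The lowest of all was prednisolone animal 6, at 1.86. The log2 difference was 0.0027 ± 0.076 (limma adjusted p = 0.996), with an interval of -0.16 to 0.16, that is a ratio between 0.896 and 1.12. Its sign changed with small choices: it was -0.0081 with quantile normalization, -0.012 with the authors' values, -0.13 blocked by slide and -0.044 without slide 4. Within slides 1, 2 and 3 it was -0.31, -0.16 and 0.077.

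SATB1, which folds thymocyte chromatin and places the CD4 and CD8 genes, was on the higher side without passing. SATB1 (A_73_116459) spanned 3.73 to 4.06 in controls with a median of 3.93, and 3.72 to 4.19 in treated cows with a median of 4.01, so that the ranges nearly coincided. The means differed by 0.082 ± 0.081 (limma adjusted p = 0.865), with an interval of -0.090 to 0.25. It was 0.15, 0.032 and 0.27 within slides 1, 2 and 3, 0.15 blocked by slide and 0.12 without slide 4, of the same sign each time. Slides held 5.46% of the sum of squares of SATB1, the smallest share of the 13 probes.

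IKZF1, the Ikaros zinc finger protein of all lymphoid cells, was on the lower side with prednisolone, without passing. IKZF1 (A_73_111741) had -4.36, -3.90 and -3.24 as lowest, median and highest values in controls and -5.30, -4.29 and -3.69 in treated cows. These values lay far under the 75th percentile of the arrays, although the probe was well above background on 15 of 15. The lowest values, -5.30 and -4.74, belonged to prednisolone animals 2 and 7 on slide 4, and prednisolone animals 4 and 1 (-4.40 and -4.38) were also just below every control, while the 4 other treated cows lay among the controls. The log2 difference was -0.50 ± 0.24 (limma unadjusted p = 0.0549, adjusted p = 0.701), a ratio of 0.705 with an interval of 0.493 to 1.01. It was -0.29, -0.51 and -0.23 within slides 1, 2 and 3, and -0.34 ± 0.19 blocked by slide (limma adjusted p = 0.600). Without slide 4 it was -0.18 ± 0.21 (limma adjusted p = 0.836), against -0.50 over all animals, and slides held 72.0% of its sum of squares.

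MYB, which keeps progenitors and double-positive thymocytes alive and dividing, had a wider spread in controls than in treated cows. MYB (A_73_115087) had 0.72, 1.20 and 1.51 as lowest, median and highest values in controls and 0.83, 1.07 and 1.21 in treated cows. The 3 controls of slide 3 read 0.72, 0.89 and 0.78, and the 4 other controls lay at 1.20 or above, so the control spread also followed the slide. The SD was 0.31 in controls and 0.12 in treated cows; the difference between these SDs was not tested. Treated minus control gave -0.075 ± 0.12 (limma adjusted p = 0.929), and -0.31, -0.50 and 0.29 within slides 1, 2 and 3. It was -0.17 blocked by slide and -0.088 without slide 4, and turned to 0.030 with normexp background correction, a setting that moved the median of all probes to -0.21.

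By their brightest probes, most members varied less between animals than the median kept probe, a comparison not matched for signal level. The SD over the 15 animals was under the median of all kept probes (0.26) for 7 of the 10 genes by their brightest probe, from 0.125 for TOX upward. The exceptions were IKZF1 (SD 0.55), RUNX3 (0.88) and RUNX1 probe A (1.05). The SD between both spots of a probe on 1 array was between 0.049 and 0.17 for the 13 probes, against a median of 0.12 over all kept probes. Spot error was thus smaller than the spread between animals in each member. The share of the sum of squares between slides was above the median of all kept probes (42.8%) for 4 of the 10 genes: LEF1, BCL11B, RUNX3 and IKZF1. RUNX1 probe A combined the largest SD with a share between slides of 5.79%, so its spread lay within slides.

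**Figure D4:**
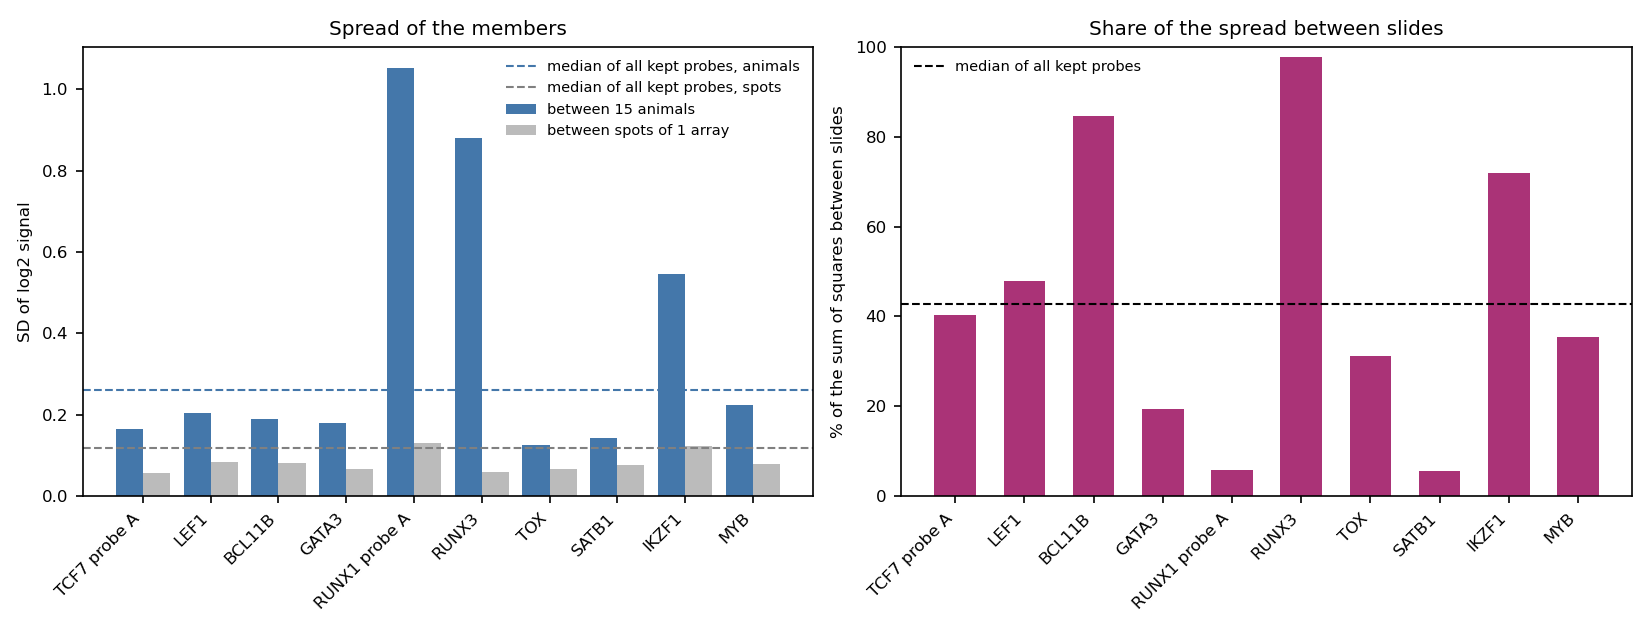
Left, SD of the log2 signal between the 15 animals (blue bars) and between both spots of a probe on 1 array (grey bars) for the brightest probe of each gene; dashed lines give the medians over all kept probes (0.26 and 0.12). Right, the percentage of each gene's sum of squares that lies between the 4 slides, with the median of all kept probes (42.8%) as a dashed line; RUNX3 reaches 97.7% and SATB1 5.46%.

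How the members varied with one another across animals depended on the slides. RUNX1 was left out here, since its brightest probe lay at separate levels. Over the 36 pairs of the other 9 genes, Pearson r across the 15 animals ran from -0.766 (BCL11B with IKZF1) to 0.821 (RUNX3 with IKZF1), all genes with a large share between slides. After each slide's mean was subtracted, these pairs had r of -0.223 and 0.215, and 12 of the 36 pairs changed sign. The pair with the highest r was then GATA3 and RUNX3, at 0.802 (Spearman rho = 0.779, and r = 0.743 without the 2 animals farthest from the median of GATA3). As measured, with the slide means left in, GATA3 and RUNX3 had r = 0.205. TCF7 and GATA3 followed at 0.692 (rho = 0.543, and 0.487 without the 2 farthest animals), and were at 0.600 as measured. TCF7, BCL11B, GATA3 and RUNX3 had r of 0.510 or more in all 6 of their pairs once slide means were subtracted. As measured, r was -0.71 for BCL11B with RUNX3, -0.358 for TCF7 with RUNX3 and 0.036 for BCL11B with GATA3. TCF7 with BCL11B had 0.518 as measured. The 6 values with slide means subtracted ran from 0.249 (TCF7 with BCL11B) to 0.743 without the 2 animals farthest from the median of the first gene. Most of these 6 thus rested in part on those animals. These values are descriptions of 15 animals on 4 slides, chosen as the highest of 36, and were not tested.

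**Figure D5:**
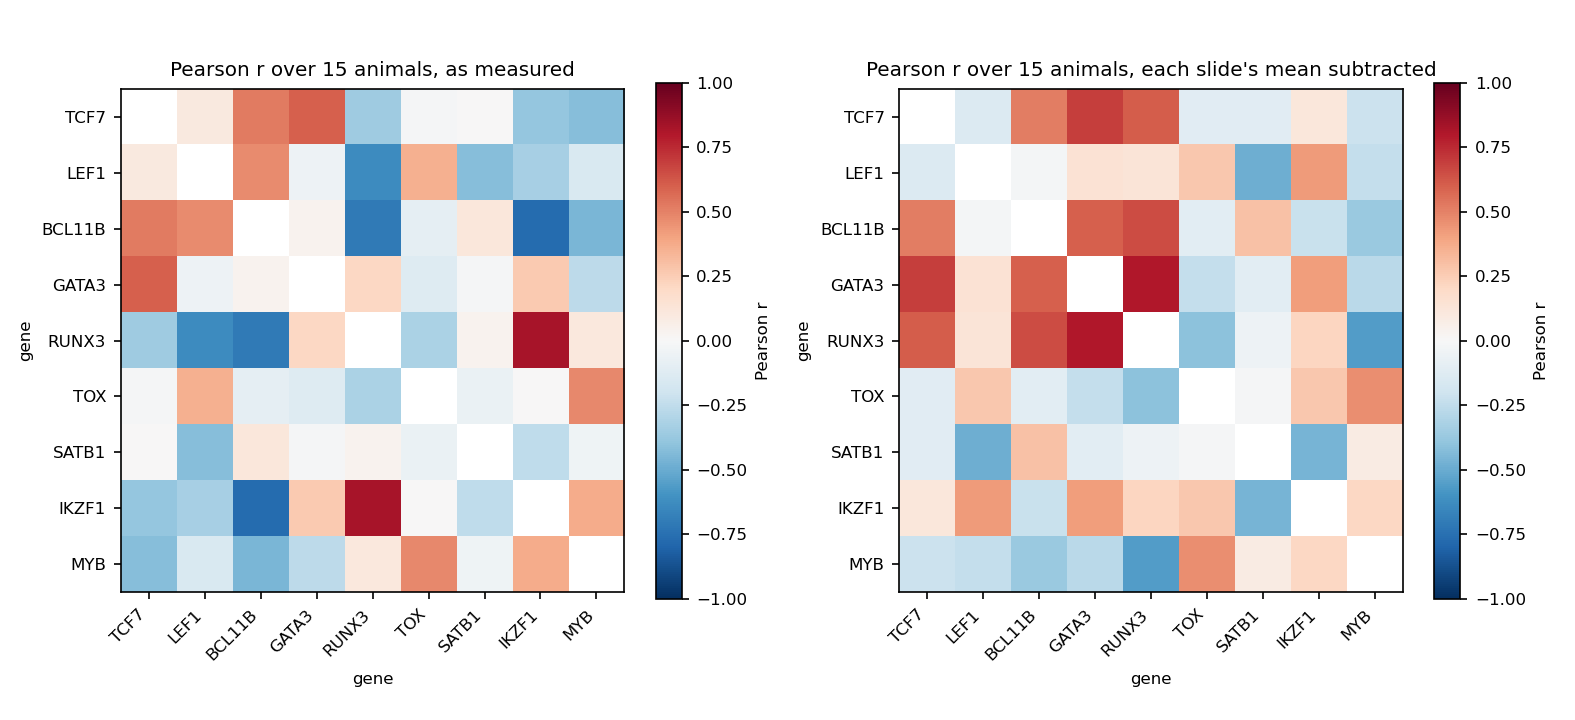
Pearson r over the 15 animals for each of the 36 pairs of 9 genes (RUNX1 left out) by their brightest probes, as measured (left) and after each slide's mean was subtracted (right); red is positive and blue negative. The RUNX3 row shows r of 0.821 with IKZF1 on the left and 0.215 on the right, and 0.802 with GATA3 on the right.

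The genes most like each member were searched among 11691 named genes, by Pearson r over the 15 animals after slide means were subtracted; with so many genes the highest r is large by selection, and it carries no test. For TCF7 these were UBE2R2 (r = 0.874), POMT1 and NCOA6, and for LEF1 TOM1L1 (0.872), HMX2 and FGFR3. For BCL11B they were IRF9 (0.931), COL27A1 and SCAMP3, and for GATA3 COG1 (0.948), GNB1 and ELP5. RUNX1 probe A came out with CAPZB, GPAT4 and DNAJC7, with no r given for values at separate levels, and RUNX3 was most like AREL1 (0.943), WDTC1 and CDK9. TOX was most like ERH (0.889), CCDC115 and FAU, and SATB1 most like ARID4B (0.900), FUT6 and FEM1C. IKZF1 was most like KMT2D (0.876), HUWE1 and SHC1, and MYB most like DNAJC27 (0.874), COMMD1 and WDR74. As measured, with slide means left in, r of these pairs, RUNX1 aside, ran from -0.341 (RUNX3 with CDK9) to 0.959 (IKZF1 with KMT2D). BCL11B then had -0.063 with IRF9 and -0.03 with COL27A1. Some of these genes were thus like their member only after slide means were subtracted. No gene of the other lists used here was among the 30 genes named.

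The genes that work with the members were described in the same way, and none of them passed the limma test. Of 30 kept genes among 35 other thymocyte regulators, 22 were on the higher and 8 on the lower side with prednisolone, beside 49.9% of all probes higher. Their median log2 difference was 0.044, and 0 had an unadjusted limma p under 0.05, against 7.08% of all probes. The smallest p-values were those of EGR2 (0.19 ± 0.12), a zinc finger factor induced by T cell receptor signals, ID3 (0.35 ± 0.21), an inhibitor of the E proteins, and HES1 (0.21 ± 0.14), a target of Notch, all limma adjusted p at least 0.755. With slide as a block these were 0.047, 0.075 and 0.093. Of 13 kept relatives among 18 family members, 6 were higher and 7 lower, with a median of -0.039 that turned to 0.031 blocked by slide and to 0.074 without slide 4. TCF7L1, a relative of TCF7, was 0.42 ± 0.21, GATA4, well above background in 6 of 7 controls and 7 of 8 treated cows, was 0.62 ± 0.31, and GATA1, the erythroid GATA factor, was -0.45 ± 0.24 (limma adjusted p = 0.701, 0.704 and 0.732). Blocked by slide TCF7L1 was 0.55, GATA4 was 0.30 and GATA1 turned to 0.093.

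Cofactors of the members lay mostly on the higher side. Of 20 kept cofactors, 16 were higher and 4 lower, beside 49.9% of all probes higher. Their median was 0.087, 0.050 blocked by slide and 0.043 without slide 4, where all probes had 0.021. 2 of the 20 had an unadjusted limma p under 0.05, against 7.08% of all probes in either direction. Both were higher, as were 3.98% of all probes at that p. CTNNB1, beta-catenin, which TCF7 and LEF1 recruit, was 0.26 ± 0.083 (limma adjusted p = 0.590), and 0.30 blocked by slide. CTBP1, a co-repressor, was 0.21 ± 0.067 (limma adjusted p = 0.592) and 0.10 blocked by slide, and TLE2, a Groucho-type repressor, was 0.21 ± 0.13 (limma adjusted p = 0.766) and 0.12 blocked by slide.

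T cell genes that these factors are known to regulate showed no common direction. Of 21 kept genes, 13 were higher and 8 lower, beside 49.9% of all probes higher. Their median was 0.027, 0.095 blocked by slide and 0.053 without slide 4. At an unadjusted limma p under 0.05 there were 2 of the 21, 1 higher and 1 lower, against 7.08% of all probes. CD8A, the co-receptor of killer T cells, was 0.23 ± 0.071 (limma adjusted p = 0.568), and the kinase LCK was 0.22 ± 0.12 (limma adjusted p = 0.743). CD8A was 0.20 and LCK 0.41 blocked by slide, each of the same sign as before. The mean of the 8 thymocyte markers ran from 2.89 to 3.18 in controls and from 2.94 to 3.25 in treated cows, and on slide 4 from 3.12 to 3.18, inside the range of the other arrays. Of the 10 factors, RUNX3, IKZF1 and MYB had a lower mean on slide 4 than in all controls, and the other 7 had a higher one. Marker means of some other cell types lay low on slide 4. That of 6 erythroid and blood markers was -2.21 to -1.93 there, below its range of -1.81 to -0.66 in controls. The ranges overlapped for 8 macrophage markers (-0.66 to -0.34 on slide 4, -0.55 to 0.38 in controls) and for 6 endothelial markers (-3.59 to -3.43 and -3.50 to -2.97). The part of these in the RUNX3 and IKZF1 values was not tested.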

How the data were processed

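Thymus RNA of 7 untreated and 8 prednisolone-treated cows was labelled with Cyanine 3 and hybridised to Agilent bovine arrays, 1 animal per array, per the labels. Groups follow the treatment characteristic; a second label field repeats the prednisolone regimen on control samples and was not used. Replicate numbers only name animals. The deposited scanner files hold spot intensity from Feature Extraction 9.5.1.1, background-subtracted and detrended, per the file headers, with no scaling from array to array, beside other columns with quality flags for each spot. The authors' deposited value table holds linear intensity (44396 rows, column medians 185 to 271, rank correlation with the processed signal at least 0.9996); whether and how it was scaled or centred is unknown. R 2.11.1 is named in the submitters' processing notes.

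The log2 processed signal was centred on each array's 75th percentile, spots marked as outliers were left out, and spots of a probe were averaged. A probe was kept when 1 of its spots was well above background in 7 or more of the 15 animals (16069 probes), and 16068 had enough values for the fit with limma 3.58.1 in R 4.3.3. The threshold was a Benjamini-Hochberg adjusted p of 0.05. Names came from the RefSeq gene table of assembly ARS-UCD2.0 by gene number, accession or description (16414 probes). Lists were described and not tested. After its values were seen at separate levels, RUNX1 probe A was left out of the correlations between members and with markers; it stayed in the search for genes most like each member. The alternatives were other scaling, background correction, dim-probe filters, outlier spots kept, the authors' values, slide as a fixed or random block, array weights, a trended robust eBayes, probes of a gene averaged, and leaving out slide 4 or each animal in turn. Named genes were all members, the 3 genes most like each, and the 3 of smallest p in each list, of which 1 is not reported here. The calculation was tested on simulated data that held no slide effect, so that test does not cover how slides bear on the fit. Members and lists were chosen with earlier results of these data known.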

Additional observations from a re-analysis of the deposited data

Results flagged for a closer look

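3 of the 26 sets of values (13 probes in 2 groups) held an animal far from the rest of its group, by the ratio of its gap to the whole range. The cut-off is one that about 1 in 20 sets of independent, normally distributed values would pass. These sets share animals and slides, and no share over all probes is given here. The 3 of 26 is therefore not read as an excess. GATA3 in prednisolone animal 2, on slide 4, was 3.54, where the other 7 treated cows lay between 3.93 and 4.21. RUNX1 probe A in control 2 was -0.086, where the other 6 controls lay between 1.73 and 2.87. TOX in prednisolone animal 6 was 1.86, where the other 7 treated cows lay between 2.09 and 2.24. The low RUNX1 values of prednisolone animals 1 and 5 did not meet the same criterion, since each lies beside the other.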

How the results depend on the processing

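No member passed under any of the settings tried, and the smallest limma adjusted p of a member was 0.198 (TCF7 probe B with array weights). Both probes shown as TCF7, GATA3, SATB1, IKZF1 and RUNX1 probe A kept their sign in all settings and in all runs that left out 1 animal. For RUNX1 probe A this is the sign of the means of values at separate levels. Its medians, 1.87 in controls and 1.98 in treated cows, lay the other way. The number of all probes called was 0 except for 1 with quantile normalization and a range of 0 to 3 when 1 animal was left out, with 3 without prednisolone animal 1; the count at an unadjusted p under 0.05 was 1138, 2947 with normexp and 1728 without the filter on dim probes. With slide as a fixed block LEF1 turned to -0.0998, RUNX1 probe B to -0.0151, RUNX3 to 0.153 and TOX to -0.129. With slide as a random block LEF1 was -0.0283 and TOX -0.0712, and with array weights -0.00809 and -0.0443. Without slide 4 LEF1 was -0.0944, BCL11B -0.0289, RUNX1 probe B -0.0639, RUNX1 probe C 0.0899, RUNX3 0.133 and TOX -0.0443. TOX was -0.00809 with quantile normalization and -0.0121 with the authors' values, and MYB 0.0300 with normexp; the cause was not tested. Leaving out 1 animal moved TOX between -0.0277 and 0.0403, LEF1 between -0.0031 and 0.0928, RUNX3 between -0.819 and -0.427 (lowest in size without prednisolone animal 2), RUNX1 probe A between -0.689 (without control 2) and -0.098 (without prednisolone animal 1), RUNX1 probe B between 0.0312 and 0.168, RUNX1 probe C between -0.164 and -0.0196, and MYB between -0.138 and -0.00682. RUNX1 probe C was -0.733 with normexp. The median over the 10 genes lay between -0.0498 and 0.141 across settings, and was below 0 with the fixed block (-0.0059), the random block (-0.0498), array weights (-0.0262) and without slide 4 (-0.037). No paired analysis was possible because the labels give no number that control and treated animals share.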

Other observations

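The members were also set beside the mean of each cell type's markers over the 15 animals, after slide means were subtracted, as descriptions with no test, and those of highest r are named. TOX varied against skeletal muscle markers (Pearson r = -0.645, Spearman rho = -0.782, and r = -0.597 without the 2 animals farthest from its median). RUNX3 and GATA3 varied with adipocyte markers (r = 0.521 and 0.490, rho = 0.607 and 0.579). MYB had r = -0.579 with B cell markers, which was -0.272 without the 2 farthest animals and so rested on them. With thymocyte markers r ran from -0.457 for MYB to 0.319 for RUNX3. Without the 2 animals farthest from the member's median these values were -0.634 and 0.288.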
